A study of Mus musculus with 23 samples.

Results

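The p200 family, also called the HIN-200 or PYHIN family, is a cluster of interferon-inducible mouse genes whose products sit in the nucleus and cytosol, many of them binding DNA. Its members were taken as the probe sets whose annotated symbol is Aim2, Mndal or Ifi202b, or lies between Ifi203 and Ifi214. The rule found 9 of the 22203 probe sets, 1 for each of Aim2, Ifi204, Ifi207, Ifi208, Ifi209, Ifi211, Ifi213, Ifi214 and Mndal. RefSeq lists 13 mouse genes under these symbols. The other 4, Ifi202b, Ifi203, Ifi205 and Ifi206, had no probe set under their symbol, and their expression was not analysed here. All 9 are described below, whether they changed or not.

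Expression was measured on microarrays in 23 samples of microglia sorted as CD45 and CD11b positive from cortex plus hippocampus. The controls were C57BL6 wild types (WT), with 4 samples aged 3 months and 4 aged 12 months. The APPswlnd strain (APP) carries a mutant human amyloid precursor protein transgene and was sampled 3 times at 3 months and 4 times at 12 months. The P301S (PS19) strain (TAU) carries a mutant human tau transgene and was sampled 4 times at 3 months and 4 times at 9 months. For those older TAU samples the titles give 12 months, against 9 in the age and source fields, and the latter was used. The older APP and TAU samples held Clec7a-positive cells, which the labels call active microglia, and are called gated here. The other 15 samples were not gated on Clec7a, a pattern-recognition lectin receptor. Strain, pathology and gate therefore differ together between gated and WT samples, and for TAU the age differs too, so that their parts cannot be told apart. The labels name neither the promoter that drives each transgene nor the sex of the mice. They call replicates biological without saying that each came from its own animal, so p-values measure the spread between samples.

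As background, type I interferons bind a receptor of Ifnar1 and Ifnar2, which activates a transcription factor complex that contains Stat2 and Irf9. It binds the interferon-stimulated response element (ISRE) of target genes, p200 genes among them. Many p200 proteins carry a pyrin domain, a HIN domain that binds double-stranded DNA, or both. Aim2 assembles an inflammasome on cytosolic DNA through the adaptor Pycard and caspase-1. Ifi204, also named p204, is studied as a DNA sensor upstream of Sting1 and as a nuclear regulator of cell growth and differentiation. Microglia are the resident macrophages of the brain, and interferon-responsive microglia are known from ageing and from amyloid and tau models.

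All members lie in 1 cluster on mouse chromosome 1. In the RefSeq annotation (GRCm38.p6), Aim2 stood at one end and Ifi205, which was not measured, at the other, with 19 annotated genes from the first to the last family gene. Promoter windows, from 250 bases before to 50 bases after an annotated start, were held by the RefSeq table for 8 of the 9 members, and by none for Ifi204. The ISRE core was searched on both strands as GAAA, any 2 bases and GAAA again, and the gamma-activated site (GAS) core as TTCNNNGAA. The ISRE core was found in windows of 6 of the 8 members, or 75.0%, against 3.99% of the 27025 genes with a window. Counted by window, it was in 3.44% of all 32851 windows in the table. It was also found in 51.2% of 43 other interferon-induced genes. The GAS core was in 0 of the 8 members, in 9.55% of the genes with a window and in 8.3% of all windows. A match describes letters in a window and is not evidence of a bound factor.

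The 40 bases around the core are shown for the 6 members that had it and for Ifi209, where it differed by 1 base. Any part of the core in the changes described below was not tested. Each is written 5′ to 3′ on the strand of its gene (RefSeq, GRCm38.p6), with the 10 bases of the core, or of its closest match, in capitals.
Ifi214, chr1:173536012-173536051, minus strand: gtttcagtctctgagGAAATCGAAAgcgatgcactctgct
Ifi209, chr1:173630765-173630804, plus strand: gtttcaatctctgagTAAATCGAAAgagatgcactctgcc
Ifi213, chr1:173599321-173599360, minus strand: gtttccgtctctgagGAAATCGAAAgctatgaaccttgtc
Ifi208, chr1:173673592-173673631, plus strand: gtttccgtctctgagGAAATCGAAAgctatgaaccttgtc
Ifi207, chr1:173741826-173741865, minus strand: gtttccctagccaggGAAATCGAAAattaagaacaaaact
Ifi211, chr1:173913059-173913098, minus strand: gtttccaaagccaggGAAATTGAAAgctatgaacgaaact
Mndal, chr1:173880199-173880238, minus strand: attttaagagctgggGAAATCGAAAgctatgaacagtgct

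The core began 79 bases upstream of the start in Ifi214, 73 in Ifi213, 58 in Ifi208, 41 in Ifi207, 37 in Ifi211 and 36 in Mndal. A second window of Mndal, not shown, held another core, TTTCTCTTTC, matched on the opposite strand. It began 54 bases upstream of the start of that window. The letters GAAATCGAAA occurred in 16 of the 32851 windows, or 0.0487%, and 5 of the genes holding them were members. Ifi203 and Ifi206, family genes without a probe set, also held them. GAAATTGAAA, the form in Ifi211, occurred in 38 windows, or 0.116%. The windows of Ifi213 and Ifi208 differed at 0 of 40 bases, those of Ifi214 and Ifi209 at 4, and those of Ifi207 and Ifi211 at 7. In Ifi209 the closest match carried G1T, counted from the 5′ end of GAAATCGAAA, and began 79 bases upstream. In Aim2 the closest match to those letters had 3 mismatches. These 40 bases lie upstream of the annotated start, so their likeness does not tell how alike the transcripts are. Probe sequences were not used here, so signal that members might share was not separated.

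Values are the authors' log2 signals per probe set, on which a difference of 1 is a factor of 2, and they compare samples within a probe set, not probe sets with each other. The median over all probe sets of an array lay between 6.87 and 7.13. As a level of background, the 95th percentile of 1467 chemosensory receptor probe sets was taken in each group, 7.73 to 8.11. Differences were tested with limma over all 23 samples, and a probe set was called when its Benjamini-Hochberg adjusted p over all 22203 probe sets was under 0.05. Where the lower group lay at background, the fold is given as a bound, from the background level of that group. No fold is given where the higher mean also lay below that level. In both cases the log2 difference is the fitted difference of the deposited values, not a measured size. All 11 measured microglia markers of 12 listed were above background in every group. WT 12 months replicates 2 and 4 had the highest medians over 5 probe sets of the multicopy Y genes Sly, Ssty1 and Ssty2, 12.61 and 11.85, against 6.99 to 10.67 in the other 21 samples. Without both, 8 members were called higher in gated APP and 7 in gated TAU, against 8 in each with them. Fewer cells of a kind and less RNA per cell cannot be told apart in these bulk samples.

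In gated APP and in gated TAU microglia, 8 of the 9 members rose against WT at 12 months, and Aim2 was the exception in both. Ifi204 rose 47.5-fold in gated APP and 49.4-fold in gated TAU, and Ifi209 rose 6.84-fold and 6.48-fold. In the other 6 members that rose, WT at 12 months was at background, so that their folds are bounds where a bound could be set. The members can therefore not be ranked by size. No bound could be set for Ifi214 in either gated group or for Ifi213 in gated TAU. Of all probe sets, 5.6% were called higher in gated APP and 5.09% in gated TAU. Outside the family, 612 genes with a probe set had the ISRE core in a window. Of these, 8.5% were called higher in each gated group. Among 15071 genes without the core it was 5.71% in gated APP and 5% in gated TAU. The median difference over the 9 members was 2.14 in gated APP and 2.52 in gated TAU, against -0.06 and -0.05 over all probe sets. The first of these medians is the value of Ifi214, at background in both groups, and the second that of Mndal, at background in WT. With the 6 members whose WT mean was at background set to their bound, or to 0 where there was none, the medians were 1.5 and 2.02. Both comparisons use the same 4 WT samples, so they are not independent of each other. In 7 of the 9 members every one of the 8 gated samples was above every one of the 15 ungated samples, a separation that 2.77% of all probe sets showed. Aim2 and Ifi213 were the other two.

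**Figure D1:**
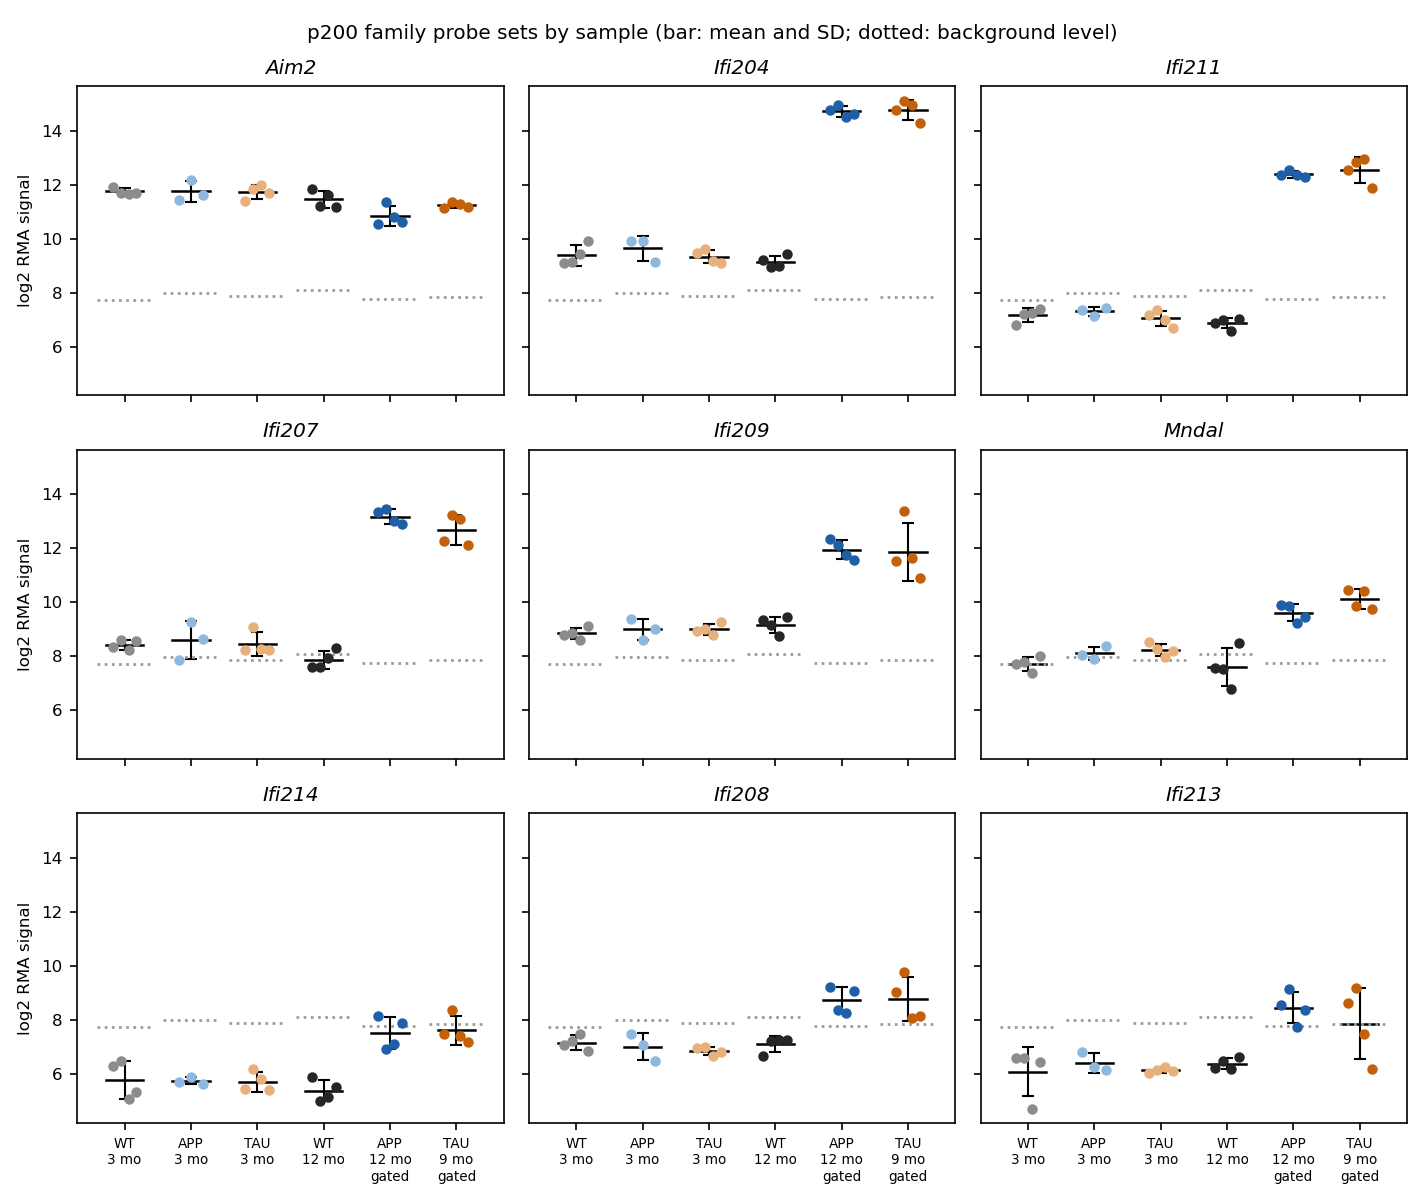
Log2 RMA signal (y axis) of the 9 p200 probe sets in each of 23 samples by group (x axis); bars show mean and SD, and dotted lines the background level of the group. Ifi204 in the 8 gated samples lies at least 4.35 above every ungated sample, Ifi211 is at background in every ungated group, and Aim2 does not separate the gated samples.

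Ifi204 was at 9.09, 9.12, 9.43 and 9.92 in the 4 young WT samples, at 9.92, 9.91 and 9.12 in young APP and at 9.47, 9.62, 9.17 and 9.10 in young TAU. In WT at 12 months it was at 9.20, 8.95, 8.99 and 9.44. In gated APP it was at 14.77, 14.96, 14.50 and 14.63, and in gated TAU at 14.77, 15.09, 14.96 and 14.27. The ungated samples formed a narrow band above background, and the gated samples another with no sample in between. The step from the highest ungated sample to the lowest gated sample was 4.35. Against WT at 12 months (9.15 ± 0.23, SD, n = 4), Ifi204 was higher by 5.57 ± 0.22 (SE) in gated APP (14.72 ± 0.20, n = 4), with an adjusted p of 3.09e-14. In gated TAU (14.77 ± 0.36, n = 4) it was 49.4-fold higher, by 5.63 ± 0.22 on the log2 scale (adjusted p = 3.55e-14). In order of the means, gated TAU and gated APP came first, then young APP, young WT, young TAU and WT at 12 months. Neighbours in this order differed by less than their spread, except at the step between gated APP and young APP.

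Ifi211, known to RefSeq also as Mnda, had signal above background only in the gated groups. It was at 6.82, 7.21, 7.25 and 7.41 in young WT, at 7.37, 7.12 and 7.45 in young APP, at 7.16, 7.36, 7.0 and 6.69 in young TAU and at 6.88, 6.99, 6.60 and 7.03 in WT at 12 months. In gated APP it was at 12.35, 12.56, 12.35 and 12.27, and in gated TAU at 12.54, 12.83, 12.96 and 11.89. All 4 ungated group means were at background, and both gated groups stood well above it. Gated APP (12.38 ± 0.12, SD, n = 4) was at least 19.4-fold above WT at 12 months (6.88 ± 0.19, n = 4), a log2 difference of 5.51 ± 0.20 (SE, adjusted p = 9.25e-15). Gated TAU (12.56 ± 0.48, n = 4) was at least 21.8-fold above it, a log2 difference of 5.68 ± 0.20 (adjusted p = 6.35e-15).

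Ifi207, listed in RefSeq also as pyhinA, was at 8.33, 8.60, 8.23 and 8.57 in young WT, at 7.87, 9.29 and 8.63 in young APP and at 8.22, 9.10, 8.26 and 8.23 in young TAU. In WT at 12 months it was at 7.61, 7.60, 7.93 and 8.30. In gated APP it was at 13.35, 13.46, 13 and 12.90, and in gated TAU at 12.29, 13.24, 13.10 and 12.12. The mean of WT at 12 months was at background, the 3 young means were above it, and the gated samples were clear of all of them by 2.83. Gated APP (13.18 ± 0.27, SD, n = 4) was at least 33.6-fold above WT at 12 months, with a log2 difference of 5.32 ± 0.29 (SE, adjusted p = 6.67e-12). Gated TAU (12.69 ± 0.56, n = 4) was at least 23.9-fold above it, with a difference of 4.83 ± 0.29 (adjusted p = 6.17e-11).

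Ifi209, whose human relative PYHIN1 (IFIX) is a nuclear DNA-binding protein, was above background in every group. The 15 ungated samples ran from 8.60 through a median of 9.00 to 9.44. Gated APP samples were at 12.34, 12.14, 11.76 and 11.57, and gated TAU samples at 11.54, 13.40, 11.66 and 10.89. The groups did not overlap, and gated TAU was the most spread of the 6, with replicate 2 high and replicate 4 low. Ifi209 rose 6.84-fold in gated APP (2.78 ± 0.34, SE, adjusted p = 4.56e-06) and 6.48-fold in gated TAU (2.70 ± 0.34, adjusted p = 9.93e-06).

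Mndal, for which RefSeq gives the synonym Ifi212, was at 7.58, 7.54, 6.80 and 8.49 in WT at 12 months, a mean at background. It was at 9.89, 9.85, 9.25 and 9.45 in gated APP and at 10.45, 9.85, 10.42 and 9.77 in gated TAU. The other 11 samples lay between 7.38 and 8.53, so the gated samples stood above them by a margin of 0.72. Mndal rose at least 2.84-fold in gated APP (2.01 ± 0.26, SE, adjusted p = 1.13e-05) and at least 4.05-fold in gated TAU (2.52 ± 0.26, adjusted p = 6.81e-07).

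The remaining members were dim. Ifi208 and Ifi213, which RefSeq also lists as Pydc3 and Pydc4, and Ifi214 were at background in all 4 ungated groups. Ifi208 was at 6.66, 7.21, 7.26 and 7.28 in WT at 12 months, at 9.22, 8.38, 8.26 and 9.06 in gated APP and at 9.05, 9.79, 8.09 and 8.14 in gated TAU. It rose at least 1.54-fold in gated APP (1.63 ± 0.31, SE, adjusted p = 0.00092) and at least 1.58-fold in gated TAU (1.67 ± 0.31, adjusted p = 0.000996). Every gated sample was above every ungated one for Ifi208 as well.

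Ifi214 was at 5.88, 5.01, 5.14 and 5.53 in WT at 12 months, at 8.14, 6.94, 7.13 and 7.89 in gated APP and at 7.49, 8.39, 7.40 and 7.20 in gated TAU. The log2 difference was 2.14 ± 0.33 (SE) in gated APP (adjusted p = 8.18e-05) and 2.23 ± 0.33 in gated TAU (adjusted p = 6.77e-05). The groups did not overlap, but all 6 group means of Ifi214 lay at or below background, so no fold is given.

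Ifi213 was at 6.21, 6.49, 6.20 and 6.62 in WT at 12 months, at 8.55, 9.14, 7.74 and 8.38 in gated APP and at 8.64, 9.17, 7.47 and 6.19 in gated TAU. Gated APP rose at least 1.27-fold (2.07 ± 0.47, SE, adjusted p = 0.00479). Gated TAU was called by a narrow margin (1.49 ± 0.47, adjusted p = 0.0494), with replicate 4 below all WT samples at 12 months. Its mean of 7.87 lay below the background level of WT at 12 months, 8.11, so no fold is given. The call for Ifi213 in gated TAU was lost in 11 of 17 alternatives, whose adjusted p ran from 0.00216 to 0.191. The difference was 1.05 without gated TAU replicate 2 (adjusted p = 0.191) and 2.05 without replicate 4 (adjusted p = 0.00216). It was 1.23 without gated TAU replicate 1 (adjusted p = 0.163) and 1.62 without replicate 3 (adjusted p = 0.063). Leaving out any 1 of the 4 WT samples at 12 months also ended the call, with differences of 1.43, 1.52, 1.43 and 1.57 for replicates 1 to 4 (adjusted p = 0.109, 0.0872, 0.0751 and 0.0742).

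**Figure D2:**
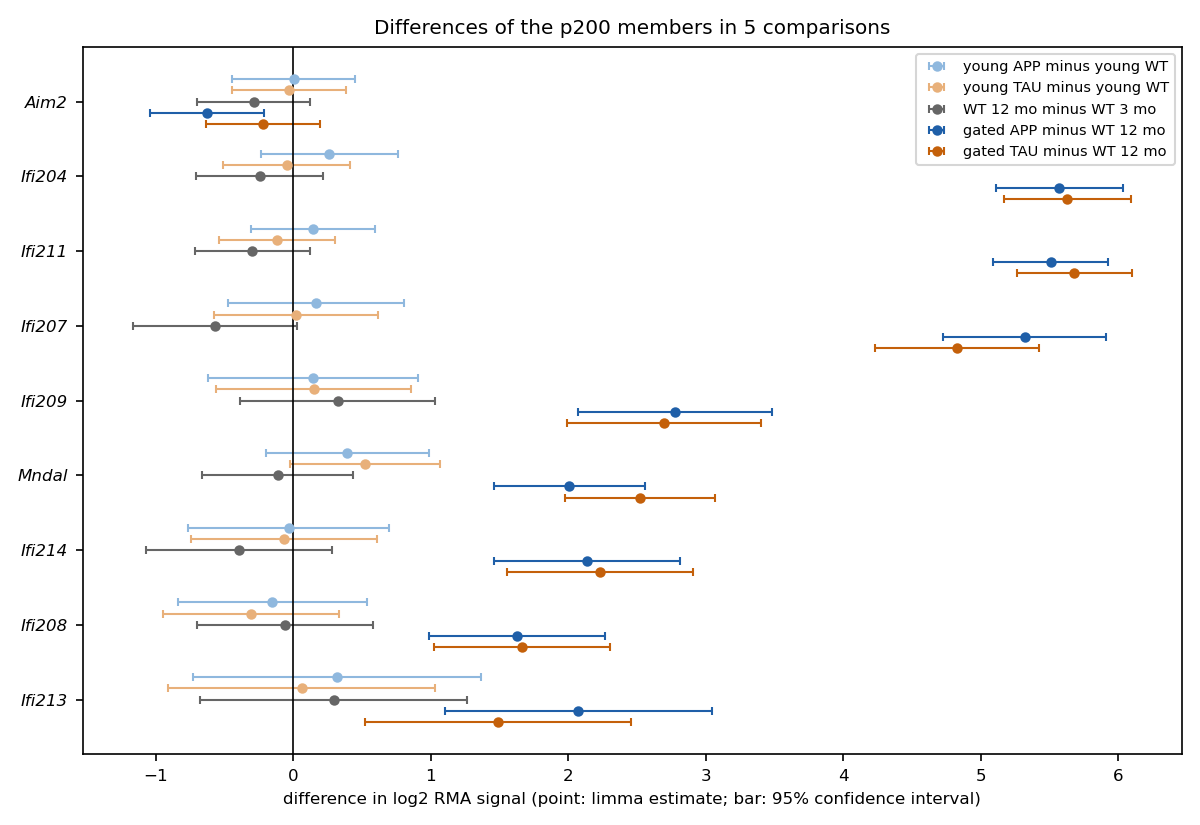
Difference in log2 RMA signal (x axis) of the 9 p200 members (y axis) in 5 comparisons; points are limma estimates and bars 95% confidence intervals. Ifi204 differs by 5.57 and 5.63 in the gated groups, WT at 12 months is at background for 6 of the 8 members that rise, and every interval of the 3 ungated comparisons includes 0.

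Aim2, the inflammasome sensor of the family, was the member with no rise in either gated group. It was at 11.93, 11.71, 11.65 and 11.70 in young WT, at 11.45, 12.18 and 11.62 in young APP, at 11.38, 11.83, 11.98 and 11.68 in young TAU and at 11.83, 11.20, 11.61 and 11.19 in WT at 12 months. In gated APP it was at 10.53, 11.37, 10.79 and 10.63, and in gated TAU at 11.13, 11.34, 11.29 and 11.19. Its signal was above background in all samples, and the gated samples overlapped those of WT at 12 months in both strains. Against WT at 12 months, Aim2 differed by -0.63 ± 0.20 (SE) in gated APP (adjusted p = 0.0512) and by -0.22 ± 0.20 in gated TAU (adjusted p = 0.565), neither of them called. Of all probe sets, 3.48% were called lower in gated APP and 3.67% in gated TAU. The Aim2 difference in gated APP lay at the threshold. It was called in 7 of 17 alternatives, with adjusted p from 0.00977 to 0.2 over all 17. Among them it was called without gated APP replicate 2 (adjusted p = 0.00977), without WT 12 months replicate 2 (adjusted p = 0.0479) or without WT 12 months replicate 4 (adjusted p = 0.0449).

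The gated groups can also be set against young samples of their own strain. In gated APP, 8 members rose against young APP (background 6.19% of probe sets higher) and Aim2 fell (background 5.95% lower). Ifi204 rose 33.5-fold, Ifi207 23.9-fold, Ifi209 7.74-fold and Mndal 2.83-fold, and Ifi211 at least 21.0-fold. Aim2 fell by 0.92 ± 0.22 (SE, adjusted p = 0.00524), or 1.89-fold, with no overlap between the groups (9.98% of all probe sets were non-overlapping and lower). This call was lost without young APP replicate 2, where the difference was -0.71 (adjusted p = 0.0681), and in a fit of only the 2 groups compared (adjusted p = 0.0638). Ifi213 was called in 15 of 16 alternatives there and lost with the Y-linked covariate (1.58, adjusted p = 0.0757). In gated TAU, 8 members rose against young TAU (background 6.67% higher) and 0 fell (background 6.81% lower). Ifi204 rose 43.2-fold, Ifi207 18.8-fold, Ifi209 7.31-fold and Mndal 3.69-fold, and Ifi211 at least 25.5-fold. Aim2 differed by -0.48 ± 0.20 (adjusted p = 0.124). Ifi213 rose by 1.72 ± 0.47 (adjusted p = 0.0149), and this call was lost without gated TAU replicate 1 (1.46, adjusted p = 0.0664) or replicate 2 (1.29, adjusted p = 0.0751).

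Ungated groups gave no calls among the members. In young APP against young WT, 0 of 9 members were called with limma and 0 had an unadjusted p under 0.05 (background 0% called). The same counts held in young TAU (background 0%) and in WT at 12 against 3 months (background 0.036%). In WT, the difference of Ifi207 between 12 and 3 months was -0.57 ± 0.29 (SE, adjusted p = 0.566), with a 95% confidence interval from -1.17 to 0.02. Mndal was 0.52 ± 0.26 higher in young TAU than in young WT (interval -0.02 to 1.07). For Ifi204 the intervals were -0.24 to 0.76 in young APP, -0.51 to 0.41 in young TAU and -0.71 to 0.22 for WT age, all far below the differences of the gated groups.

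The change between young and older samples, which includes the gate in APP and TAU, was also compared between strains as an interaction. It was larger than in WT for 7 of 9 members in APP (background 2.82% higher) and for 7 of 9 in TAU (background 2.6% higher). Aim2 and Ifi213 were not called in either. The excess of Ifi204 was 5.31 ± 0.33 (SE) in APP (adjusted p = 2.88e-10) and 5.68 ± 0.31 in TAU (adjusted p = 4.44e-11).

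Directly compared, gated APP and gated TAU differed in 0 of the 9 members by limma, 0 of them at an unadjusted p under 0.05, against 0.928% of all probe sets called. For Ifi204 the APP minus TAU difference was -0.06, with a 95% confidence interval from -0.52 to 0.40, and for Ifi211 it was -0.17, from -0.59 to 0.25. The intervals for Aim2 (-0.82 to 0.01), Ifi207 (-0.11 to 1.09) and Mndal (-1.06 to 0.03) reached further from 0 on one side. For Ifi213 the interval ran from -0.38 to 1.55. The interval was narrower for Ifi204 and Ifi211 than for Ifi213. Gated APP mice were 12 months old and gated TAU mice 9, so strain and age cannot be told apart here.

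Within the gated groups many pairs of members varied together among replicates, but not all. Within gated TAU, replicate 2 was the highest sample in 7 of 9 members and replicate 4 the lowest in 7 of 9. The share of all probe sets with the same order was not counted. The mean deviation from the group mean over the 8 members other than Aim2 was 0.69 in replicate 2 and -0.72 in replicate 4, and 0.06 and -0.03 in replicates 1 and 3. The mean deviation of 53 other interferon-induced genes was 0.29 in replicate 2 and -0.50 in replicate 4. In gated APP the deviations of the 8 members were smaller, at 0.26, 0.11, -0.32 and -0.05. Across the 8 gated samples, the correlations of these deviations between the 28 pairs of the 8 members had a median of 0.55, from -0.05 to 0.92. Mndal was at -0.05 with Ifi214, at 0.002 with Ifi208 and at 0.03 with Ifi209. The 8 pairs with Aim2 had a median of 0.26, from -0.50 to 0.44. Those points share 8 arrays and their normalization, and the values are a description. The summed signal of neuron markers was 14.33 in gated TAU replicate 4 and 12.32 to 12.57 in the other 3 replicates, and that of astrocyte markers 13.60 against 11.25 to 12.04. Their part in the low p200 values of replicate 4 was not tested.

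**Figure D3:**
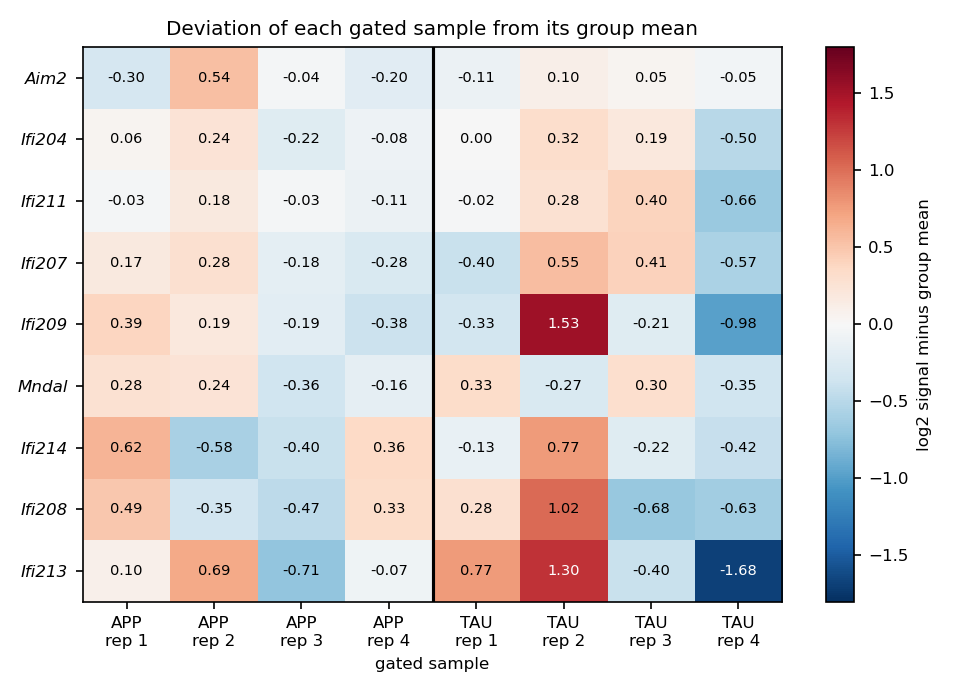
Deviation of log2 signal from the group mean for each p200 member (rows) in the 8 gated samples (columns), with red above and blue below the group mean. Gated TAU replicate 2 is the highest of its group in 7 of 9 members and replicate 4 the lowest in 7 of 9.

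Over all 23 samples, which fall into gated and ungated sets, the 28 pairs without Aim2 had Pearson correlations from 0.771 to 0.996, and the 8 pairs with Aim2 from -0.73 to -0.59. As the samples form separate sets, these values mainly describe the gap between them. Over deviations from group means, the medians were 0.37 and 0.02. The 5 genes outside the family most like Ifi204 over the 23 samples were Axl (0.991), a phagocytic receptor kinase, Itgax (0.989), the integrin CD11c, Cybb (0.989), a subunit of the phagocyte NADPH oxidase, Apoe (0.986), a lipid carrier, and Ifitm3 (0.985), an antiviral membrane protein. For Ifi211 they were Cybb (0.994), Itgax (0.990), Apoe (0.988), Axl (0.988) and Oas1g (0.984), an RNA-activated antiviral enzyme. Over deviations from group means, the most alike were Mettl27 (0.80), Mogs (0.79), Samd9l (0.75), Ifitm3 (0.73) and Gm1966 (0.66) for Ifi204. For Ifi211 they were Zfp467 (0.77), Asb7 (0.75), Mrpl27 (0.74), Samd9l (0.72) and Btg1 (0.71). Each set holds the highest values among the 19572 probe sets with a symbol, members left out. With so many compared over 23 samples, values of this size can arise without a link. They are a description without a p-value.

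The rest of the interferon pathway was described from lists of 149 genes, of which 137 were measured. For each of these lists, the background in gated APP was 5.6% of all probe sets called higher and 3.48% lower. In gated TAU it was 5.09% and 3.67%. In gated APP against WT at 12 months, 38 were called higher and 8 lower, and in gated TAU 40 higher and 7 lower. The last count was 4 without gated TAU replicate 2, 3 without replicate 3, 4 without replicate 4 and 4 without WT 12 months replicate 1. The other interferon-induced genes made up 28 of the 38 higher calls in gated APP and 30 of the 40 in gated TAU. Of 19 measured interferon genes, 0 were called in gated APP. In gated TAU, Ifnk (0.84) and Ifnz (-1.02) were called, between levels at background in both groups. Ifnb1, which encodes interferon beta, was at background in all groups, with differences of 0.63 (adjusted p = 0.211) and 0.40 (adjusted p = 0.452).

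Of 20 measured receptor and signalling genes, 6 rose in gated APP and 3 in gated TAU (background 5.6% and 5.09%). In both, 0 fell (background 3.48% and 3.67%). Ifnar2, a receptor chain, rose from 15.60 ± 0.17 (SD, n = 4) to 16.66 ± 0.20 (n = 4) in gated APP, by 1.06 ± 0.22 (SE, adjusted p = 0.00274). In gated TAU it differed by 0.52 (adjusted p = 0.169). Stat2 and Irf9, partners in the factor that binds the ISRE, rose by 1.15 ± 0.25 (adjusted p = 0.00338) and 0.89 ± 0.24 (adjusted p = 0.0202) in gated APP. In gated TAU they differed by 0.52 (adjusted p = 0.224) and 0.67 (adjusted p = 0.0936). None of the 3 genes was called between the gated groups. Irf7, an inducible interferon regulatory factor, differed by 2.08 ± 0.35 and 1.70 ± 0.35, but below background throughout. Usp18, an interferon-induced brake on the receptor, rose at least 5.25-fold in gated APP and at least 3.78-fold in gated TAU. Irf8, a factor of myeloid identity, rose by 1.04 ± 0.26 in gated TAU (adjusted p = 0.0117) and differed by 0.71 in gated APP (adjusted p = 0.0977). Ifnar1 differed by 0.53 (adjusted p = 0.06) and 0.39 (adjusted p = 0.189).

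Of 23 measured nucleic acid sensing genes, 3 rose and 2 fell in gated APP (background 5.6% and 3.48%). In gated TAU, 4 rose and 2 fell (background 5.09% and 3.67%). The RNA sensor family member Dhx58 rose by 2.47 and 2.50, and Zbp1, a sensor of Z-form nucleic acid, at least 3.57-fold and 3.79-fold. Ifih1, the RNA sensor MDA5, rose by 1.19 and 1.24. Sting1, the adaptor that carries the cytosolic DNA signal, moved opposite to Ifi204. It fell from 14.06 ± 0.18 (SD, n = 4) in WT at 12 months to 12.33 ± 0.12 (n = 4) in gated APP, by 1.73 ± 0.23 (SE, adjusted p = 1.1e-05). In gated TAU, at 13.31 ± 0.22 (n = 4), it fell by 0.75 ± 0.23 (adjusted p = 0.0393). Sting1 also differed between the gated groups, by -0.97 ± 0.23 (adjusted p = 0.0342), where 0 members did. The fall of Sting1 in gated TAU was lost in 9 of 17 alternatives, with adjusted p from 0.0222 to 0.108, among them without any 1 of gated TAU replicates 2, 3 and 4 or WT 12 months replicates 1, 2 and 3. Its difference between the gated groups was lost in 8 of 17 (adjusted p from 0.00709 to 0.145), among them without any 1 gated sample but TAU replicate 2. In gated APP, Sting1 kept its call in all 17. Cgas, the enzyme whose product activates Sting1, differed by -0.14 (adjusted p = 0.797) and -0.43 (adjusted p = 0.33). The endosomal RNA receptor Tlr3 fell by 1.06 in gated APP and by 0.995 in gated TAU. Tlr8, another such receptor, was at 7.35, 6.80, 9.23 and 6.35 in gated TAU, against 5.74 to 6.34 in WT at 12 months. Its mean was at background in both groups and only replicate 3 was above it. The difference of 1.29 was called (adjusted p = 0.0491), but was 0.69 without replicate 3 (adjusted p = 0.175). In gated APP it was -0.36 (adjusted p = 0.652).

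Of 22 measured inflammasome genes, the setting in which Aim2 works, 1 rose and 4 fell in gated APP (background 5.6% and 3.48%). In gated TAU, 2 rose and 3 fell (background 5.09% and 3.67%). The counts of genes that rose lie near these shares. Il1b, the cytokine that caspase-1 cuts, rose by 3.00 ± 0.35 (SE, adjusted p = 2.26e-06) and 3.16 ± 0.35 (adjusted p = 1.53e-06). Pycard, the adaptor that Aim2 binds, rose by 0.98 ± 0.30 in gated TAU (adjusted p = 0.0416) and differed by 0.72 in gated APP (adjusted p = 0.151). Casp1 differed by 0.15 (adjusted p = 0.723) and 0.32 (adjusted p = 0.373), the pore protein Gsdmd by -0.49 in each (adjusted p = 0.145 and 0.142), and Il18 by -0.42 (adjusted p = 0.192) and -0.48 (adjusted p = 0.133). Casp4 differed by -0.26 (adjusted p = 0.714) and -0.46 (adjusted p = 0.477). Txnip, a thioredoxin-binding protein, fell by 1.89 and 1.81, Casp8 by 1.16 and 1.2, and Nlrp1b, an inflammasome sensor, by 1.33 and 0.90.

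Of 53 measured other interferon-induced genes, 28 rose and 2 fell in gated APP (background 5.6% and 3.48%), with a median of 0.99. In gated TAU, 30 rose and 1 fell (background 5.09% and 3.67%), with a median of 0.87. Ifitm3 rose 38.8-fold and 25.3-fold, and Slfn5, of the Schlafen family, at least 15.4-fold and at least 8.66-fold. Lgals3bp, a secreted glycoprotein, rose 12.7-fold and 9.05-fold, and Oas1g at least 8.58-fold and at least 7.70-fold. The guanylate-binding protein gene Gbp7 fell by 1.34 and 1.16, and Gbp3 fell by 0.99 in gated APP and differed by -0.74 in gated TAU (adjusted p = 0.0739). Only Sting1 and Ifitm2 of the 137 genes were called between the gated groups (background 0.928%). Ifitm2 was 1.97 ± 0.20 (SE) higher in APP (adjusted p = 1.78e-06).

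Other calls of pathway genes lay near the threshold and were lost in some of 17 alternatives, or 16 where the dim filter removed the gene. These alternatives were applied to single pathway genes after seeing the data. In gated TAU the call was lost in 12 for Nlrp1b, without any 1 of the 8 samples among others, in 7 for Pycard, in 3 for Tlr3, in 11 for Tlr8, in 8 for Ifnk and in 7 for Ifnz. Single samples that ended the Pycard call were gated TAU replicates 1, 2 and 3 and WT 12 months replicates 1, 2 and 4, and for Tlr3 they were gated TAU replicates 3 and 4 and WT 12 months replicate 1. In gated APP it was lost in 5 for Irf9, among them without gated APP replicate 2, WT 12 months replicate 2 or WT 12 months replicate 4, and in 2 for Gbp3, among them without WT 12 months replicate 1. Ifnar2 in gated APP and Irf8 in gated TAU lost it in 1 each, where the fit dropped both replicates 2 and 4 of WT at 12 months.

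**Figure D4:**
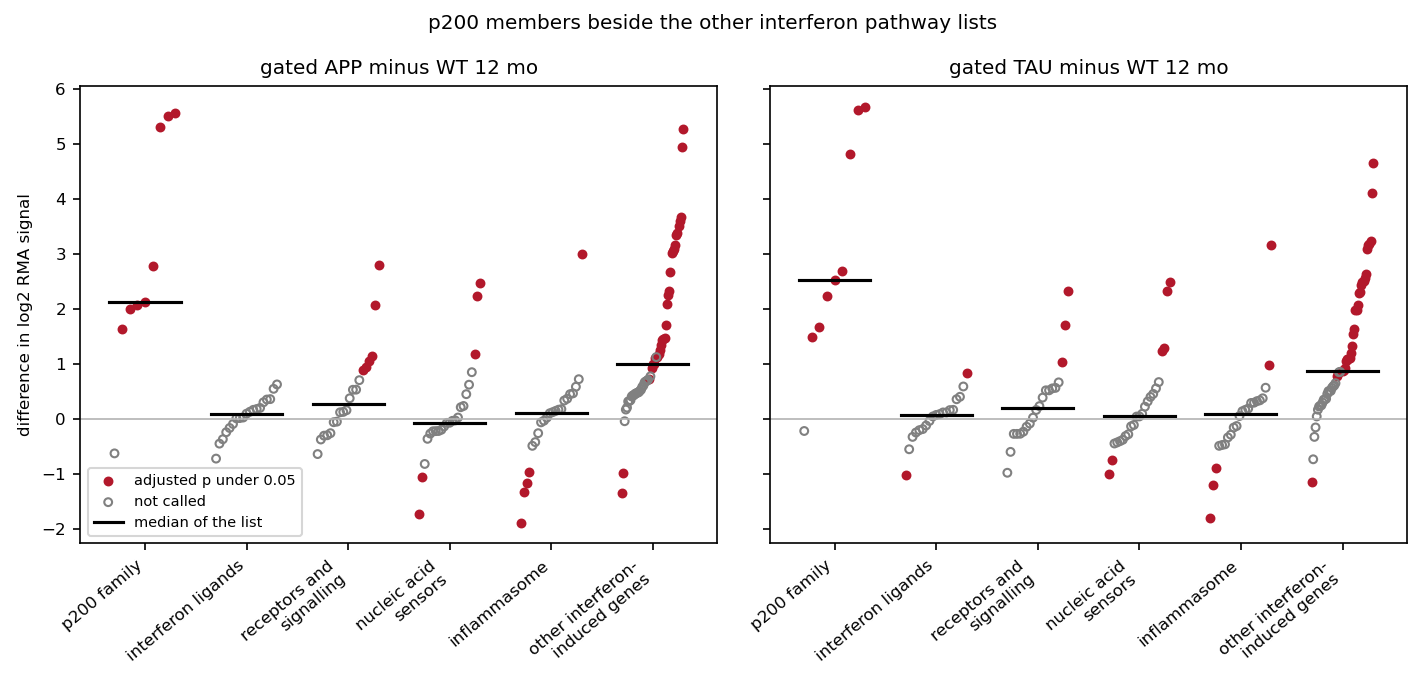
Difference in log2 RMA signal (y axis) from WT at 12 months for each measured gene of 6 lists (x axis), in gated APP (left) and gated TAU (right); filled points have an adjusted p under 0.05 and black lines are list medians. The p200 medians are 2.14 and 2.52, or 1.5 and 2.02 with dim members at their bounds. Those of other interferon-induced genes are 0.99 and 0.87, without bounds, and compare with the first pair only.

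Genes near the cluster were also looked at. Ackr1, Cadm3 and Fcer1a were at background in WT at 12 months and in both gated groups, and none of the 3 was called. Genes without signal above background can hardly be called, so these 3 do not serve as a check of the region. Of 9 measured relatives and neighbours, 0 were called in gated APP (background 5.6% higher and 3.48% lower). For gated TAU the background was 5.09% higher and 3.67% lower. In gated TAU Slamf8, a macrophage surface receptor farther along the chromosome, was called higher, by a fitted 1.72 ± 0.27 (SE, adjusted p = 0.00014). Its mean in WT at 12 months was at background and no bound could be set, so this is not a measured size.

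Markers of other cells moved with the gated groups in part. Over all probe sets, 5.6% were called higher and 3.48% lower in gated APP, and 5.09% and 3.67% in gated TAU. Of 11 measured monocyte markers, 10 were at background in every group, Ly6c2 and Ccr2 among them. Fn1 was called higher in both gated groups, by 1.81 and 1.37, and Ace in gated APP, by 0.84, all between levels at background. The 11 markers' summed log2 signal was 11.63 to 11.98 in WT at 12 months, 11.77 to 12.10 in gated APP and 11.54 to 12.04 in gated TAU. All 9 measured neutrophil markers were at background in both gated groups, with S100a8 lower by fitted differences of -2.54 and -2.12, and the dendritic cell genes Flt3, Zbtb46, Xcr1 and Clec9a in all 6 groups. Of 10 dendritic cell markers, 2 were called lower in each gated group, Cd209a and Klrd1 in APP and Siglech and Klrd1 in TAU. Of 10 border macrophage markers, 5 were above background in each of WT at 12 months, gated APP and gated TAU. Their summed signal was 14.31 to 15.04 in WT at 12 months, 12.16 to 12.56 in gated APP and 13.64 to 15.03 in gated TAU. Stab1 fell in both gated groups, by 3.16 and 1.21, and Ms4a7 rose by 3.56 in gated TAU. In gated APP, Folr2 was also called higher and Cbr2 lower. Klrb1c was the 1 of 12 T and NK cell markers called, at 1.62 higher in gated TAU, and the summed signal of that list was 10.53 to 10.85 in gated TAU, 9.86 to 10.10 in gated APP and 9.49 to 10.79 in WT at 12 months. The summed signal of endothelial and pericyte markers was 12.15 in gated APP replicate 2 and 10.33 to 11.35 in the other 3, with Flt1 called higher and Pecam1 lower in gated APP. The astrocyte gene Gfap was called higher in gated APP, by 2.43. By limma, 0 of 8 B cell, 0 of 11 neuron and 0 of 8 oligodendrocyte markers were called in either gated group, where 1, 2 and 0 in gated APP and 1, 3 and 1 in gated TAU had an unadjusted p under 0.05. The microglia markers' summed signal was 20.14 to 20.34 in WT at 12 months, 19.26 to 19.66 in gated APP and 19.30 to 19.49 in gated TAU, with 6 and 7 of 11 called lower and 0 higher. The part of these differences in the p200 values was not tested.

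Sex was not in the labels. Kdm5d, Uty and Eif2s3y, carried on the Y chromosome, had a median difference from young WT of -3.68 in young APP and -2.62 in young TAU, with 3 of 3 at an unadjusted p under 0.05 and 0 called by limma in each. From WT at 12 months it was -0.55 in gated APP and -1.38 in gated TAU, with 0 of 3 at an unadjusted p under 0.05. Between gated and young APP it was 2.05, with 2 of 3 at an unadjusted p under 0.05. With the mean of these genes as a covariate, the 8 members that rose against WT at 12 months kept their calls in both gated groups.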

How the data were processed

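Per the submitters' processing notes, the authors ran RMA in the Transcriptome Analysis Console; versions and genome build are not given in the sources used here. The values the authors deposited are thus on the log2 scale, one for each probe set, after background correction, between-array normalization and summary of its probes, so values are relative and low ones are compressed. Per the labels, 5 ng of total RNA was amplified with a 3′ kit. Symbols came from the platform annotation.

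A mean per group was fitted to all 23 samples with limma 3.58.1 (R 4.3.3, eBayes without trend; 17 residual and 5.11 prior degrees of freedom), checked on simulated data. The number of arrays limits precision: the median SE was 0.226. Named were all members, fixed genes of the pathway, the 3 called genes with the largest rise and fall per list and gated contrast, the 5 genes most like Ifi204 and Ifi211, and markers that moved. Members and lists were chosen with earlier results of these data known. Alternatives were median centring, quantile normalization, a dim filter, fits on the compared groups, trend and robust eBayes, array weights, a Y-linked covariate, a replicate block, and leaving out samples. Replicate numbers were not treated as pairs in the main fit, and the block was an alternative only. This was not because such pairs were unlike. Of 30 same-number pairs of samples, 19 had deviations correlated above 0.1, with all 30 from -0.35 to 0.47. With WT at 12 months, the values were 0.02 to 0.47 for gated APP and 0.06 to 0.42 for gated TAU.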

Additional observations from a re-analysis of the deposited data

Results flagged for a closer look

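The change with age, which in APP and TAU includes the gate, differed from that of WT by limma's interaction test for 7 members in each strain. In APP the excess was 5.31 for Ifi204 and 2.63 for Ifi209, both above background throughout, and 5.37 for Ifi211, 5.15 for Ifi207, 2.17 for Ifi214, 1.78 for Ifi208 and 1.62 for Mndal (adjusted p from 4.6e-11 for Ifi211 to 0.0255 for Ifi208). In TAU it was 5.68 for Ifi204 and 2.55 for Ifi209, and 5.80 for Ifi211, 4.81 for Ifi207, 2.30 for Ifi214, 2.0 for Mndal and 1.97 for Ifi208 (adjusted p from 6.55e-12 for Ifi211 to 0.0104 for Ifi208). For the 5 members named last in each strain, at least the mean of WT at 12 months was at background, and for Ifi214 all 6 means were, so that their excesses are fitted values and not measured sizes. The APP call for Ifi208 was lost in 7 of 24 alternatives, with adjusted p up to 0.169, among them without APP 3 months replicate 3 (1.52, adjusted p = 0.1). That for Mndal was lost in 2 of 24, with the Y-linked covariate (adjusted p = 0.0878) and without APP 3 months replicate 2 (adjusted p = 0.0576).

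Single samples stood far from the rest of their group in 3 of 45 sets of 4 values tested, where chance gives about 1 in 20. Ifi213 was at 4.72 in WT 3 months replicate 3, with the nearest other sample at 6.44. Ifi208 was at 6.66 in WT 12 months replicate 1, with the nearest at 7.21. Ifi207 was at 9.10 in TAU 3 months replicate 2, with the nearest at 8.26.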

How the results depend on the processing

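Ifi204, Ifi211, Ifi207, Ifi209, Ifi208 and Mndal kept their calls in both gated groups against WT at 12 months in all 17 alternatives each, with Ifi204 between 5.46 and 5.67 in APP and between 5.52 and 5.80 in TAU. The dim filter left 9913 probe sets and removed Ifi214. No result reversed. The count of members lower in gated APP against WT at 12 months was 0 and became 1, Aim2, with WT 12 months replicates 2 and 4 left out (adjusted p = 0.025), with dim probe sets removed (adjusted p = 0.031) and with quantile normalization (adjusted p = 0.0216); it ran from 0 to 1 when single samples were left out. Against young APP it was 1 and became 0 with only the groups compared, and ran from 0 to 1 on leaving out single samples. Pathway genes lower in gated TAU, 7, ran from 3 to 6 when single samples were left out. With the replicate number as a block, 1 member, Aim2, was lower in gated APP against WT at 12 months (adjusted p = 0.0467), and calls over all probe sets went from 1243 higher and 772 lower to 1359 and 985 there, and from 1131 and 815 to 1247 and 1122 in gated TAU. In these contrasts, 3 of 4 gated APP and 4 of 4 gated TAU samples correlated best with the WT sample of their own number, a hint from the data and not from the design. A background at the 90th percentile put 16 member means at background, against 21. The causes of these changes were not tested. Dim members are limited by signal over background.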
